A study of Mus musculus with 6 samples.

Results

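The Notch pathway was examined through 10 genes in cultured cells of the stria vascularis and spiral ligament, which the study's methods took together. The genes were 4 receptors (*Notch1* to *Notch4*), 3 ligands (*Jag1*, *Jag2* and *Dll4*) and 3 transcriptional targets (*Hes1*, *Hey1* and *Hey2*). They were chosen by gene symbol, and each of the 10 had a row among the 24421 genes of the deposited table. RNA was sequenced from 3 *Nhe6*-knockout and 3 wildtype cultures, to ask which genes differ when the endosomal sodium/proton exchanger NHE6 is lacking. The cells were labelled as primary endothelial cells, came from pooled mice of postnatal day 10 to 12, were sorted and passaged, and were not treated. The *Nhe6*-knockout mice carried a targeted disruption, and the strain background of both genotypes was given as C57BL/6N in the labels and as C57bl6/j in the study's methods.

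The libraries held 25587097 to 29126232 gene-assigned reads each. The labels do not say whether the cultures of a genotype came from separate litters, and p-values measure only the spread between these cultures. The 14 endothelial markers were mixed, with 8 tested and 6 below the filter or at 0. *Cldn5* and *Robo4* had 0 reads in all 6 libraries, *Tie1* had at most 2, *Pecam1* 8, *Erg* 15 and *Vwf* 25, and *Kdr* had 1 to 68 and *Esam* 3 to 230. *Emcn* had 397 to 18730 reads, *Eng* 840 to 5467, *Cd34* 838 to 4716, *Flt1* 399 to 3077 and *Tek* 193 to 975. *Cdh5*, the gene of VE-cadherin, fell in *Nhe6*-knockout cultures, from 2508 to 5198 normalized counts in wildtype to 179 to 232 (log2 fold change -4.15, edgeR adjusted p = 0.0133). Normalized counts are reads scaled to a common, mean library size by TMM. Summed normalized counts were 15843 to 25739 for the 14 endothelial markers, mostly *Emcn* in each library but wildtype replicate 2, and 168662 to 282330 for 7 fibroblast markers, led by *Col1a2* and *Col3a1*. They were 20695 to 38931 for 12 mural, 91.8 to 2789 for 6 macrophage and 283 to 881 for 7 melanocyte markers. Part of the defining markers of the labelled cell type was thus absent or nearly so while others were present, and the samples are called cultures here. On the first principal component wildtype replicate 2 stood alone, at 112 against -30.4 to -6.49. *Nhe6*-knockout replicates 1 and 2 were close to each other, with a median chi-square per gene of 1.41 against 6.51 to 24.4 in the other pairs of a genotype, and they differed by more than sampling noise.

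Notch signalling passes between neighbouring cells. A ligand of the Jagged or Delta-like family on one cell pulls on a Notch receptor on the next, the receptor is cut by ADAM proteases and by gamma-secretase, and its intracellular domain enters the nucleus, where it joins RBPJ and Mastermind proteins on target genes such as those of the Hes and Hey repressors. In blood vessels, Dll4, Notch1 and Notch4 are known from endothelial cells, where they set tip cell choice and arterial identity, and Notch3 is known from pericytes and smooth muscle cells. In bulk samples such as these, fewer cells of a type and less RNA per cell cannot be told apart.

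Promoter sequence was at hand for 8 of the 10 members, from RefSeq on GRCm38.p6, and not for *Hes1* and *Hey1*. The 250 bases before the transcription start were searched on both strands for the RBPJ core motif TGGGAA, for the E-box CACGTG bound by Hey proteins, and for the GC box GGGCGG, which was added after the sequences had been seen. The RBPJ core was found in 1 of the 8 windows, that of *Hey2*, beside 21.6% of all 32851 promoter windows. No member had the E-box, which 6.02% of all windows held, and 6 of the 8 had a GC box, beside 32.7% of all windows. Shown are *Notch3*, the receptor with the clearest separation of the genotypes, and *Hey2*, the target that holds the RBPJ core. Capitals mark the GC boxes and, in *Hey2*, also the RBPJ core, which starts 207 bases before the transcription start and reads TTCCCA on this strand. The windows lie at chr17:32166891-32167140 (*Notch3*) and chr10:30842784-30843033 (*Hey2*), both on the minus strand. The last bases of the *Hey2* window fall in its GENCODE transcript. Those of the *Notch3* window do not, as its GENCODE gene starts at 32166852 on the minus strand, outside the window. A match describes the letters only.
Notch3: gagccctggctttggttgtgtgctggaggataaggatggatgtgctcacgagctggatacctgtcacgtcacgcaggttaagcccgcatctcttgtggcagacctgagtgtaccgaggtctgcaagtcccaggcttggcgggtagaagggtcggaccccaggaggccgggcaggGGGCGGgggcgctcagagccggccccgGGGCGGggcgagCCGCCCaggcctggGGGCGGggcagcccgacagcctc
Hey2: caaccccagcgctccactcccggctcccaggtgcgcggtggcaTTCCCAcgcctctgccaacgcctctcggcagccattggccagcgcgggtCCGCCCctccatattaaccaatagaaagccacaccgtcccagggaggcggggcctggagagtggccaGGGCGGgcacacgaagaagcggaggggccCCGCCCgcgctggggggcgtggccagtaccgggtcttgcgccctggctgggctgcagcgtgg

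Of the 10 members, 8 had enough reads to be tested, and *Dll4* and *Hey2* were below the filter. Among the 8 tested members, 0 passed an adjusted p of 0.05 by the quasi-likelihood test of edgeR, fitted over 13479 genes, where 0.0668% of all genes passed. At an unadjusted p under 0.05 there were 2 members, *Notch3* and *Jag2*, beside 11.8% of all genes. These were also the 2 members for which the genotypes did not overlap in normalized counts, both higher in *Nhe6*-knockout cultures, beside 10.3% of all genes in that direction and 19.9% in either direction. DESeq2 called 1 of the 8, *Notch3*, beside 4.69% of the genes to which it gave an adjusted p. The median log2 fold change was 0.55 over the 8 tested members and -0.02 over all genes tested. Of the 8 members, 5 lay above and 3 below 0, beside 51.9% of all genes tested below 0.

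**Figure D1:**
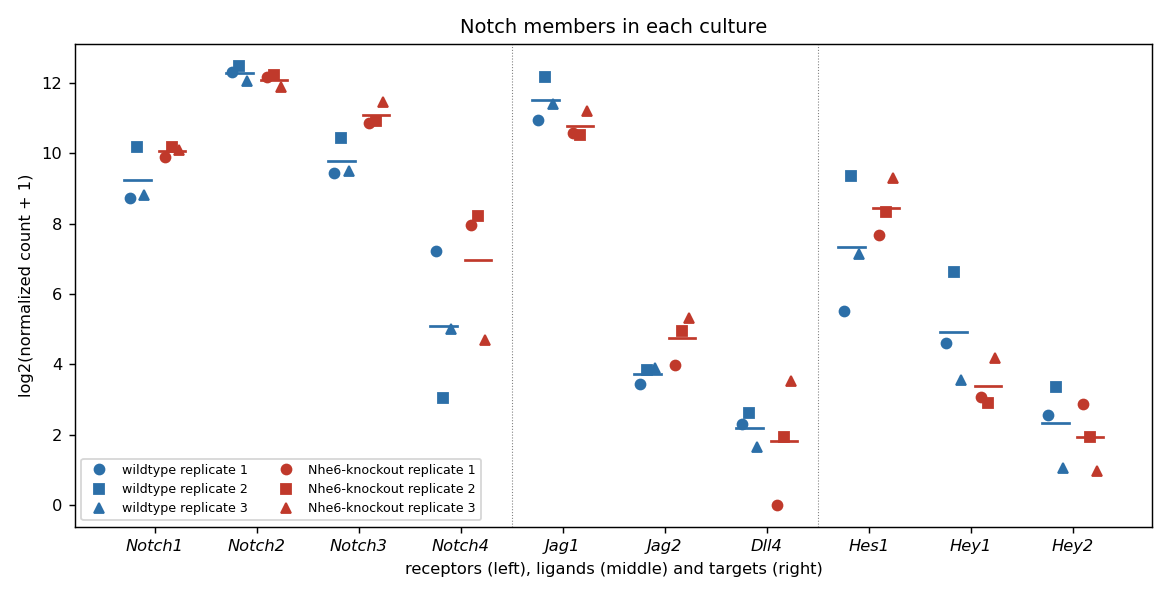
Normalized counts of the 10 members in each culture on a log2(normalized count + 1) axis, with wildtype cultures in blue, *Nhe6*-knockout cultures in red, 1 marker shape per replicate number and a line at the mean of the log2 values. *Notch2* had the most counts in each culture, and *Dll4* and *Hey2* the fewest. Next after *Notch2* came *Jag1* in the wildtype cultures and *Notch3* in the *Nhe6*-knockout ones. The red points of *Notch3* and *Jag2* all lie above the blue ones.

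*Notch3*, the receptor best known from pericytes and smooth muscle, lies on chromosome 17 of GRCm38 from 32120820 to 32166852. Replicates 1 to 3 held 1842, 1945 and 2828 normalized counts among the *Nhe6*-knockout cultures, and 692, 1379 and 722 among the wildtype ones. No wildtype culture reached the lowest *Nhe6*-knockout value, and wildtype replicate 2 was the highest of its genotype. Mean levels of 2205 ± 542 and 931 ± 388 (SD, n = 3 each) gave a log2 ratio of 1.24 (SE 0.32, edgeR adjusted p = 0.209), not past the threshold. With DESeq2 the adjusted p was 0.0155, and without wildtype replicate 2 edgeR gave a log2 fold change of 1.64 with an adjusted p of 0.0307, in a fit that called 2.88% of all genes. Across 14 alternatives, log2 ratios of 1.02 to 1.64 came with adjusted p-values of 0.0155 to 0.579.

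Mural markers were read beside *Notch3*. Of the 12 mural markers, 11 were tested and 0 had an adjusted p under 0.05, against 2 at an unadjusted p under 0.05 and 0 with DESeq2. The genotypes did not overlap for 5 of them, beside 19.9% of all genes, and 11.8% of all genes had an unadjusted p under 0.05. *Pdgfrb*, *Rgs5*, *Abcc9* and *Des*, genes used to mark pericytes, had more counts in each *Nhe6*-knockout culture, and *Anpep* had fewer. Over all 11, 6 had a log2 fold change above 0 and 5 below 0. Those below included *Cspg4*, also used to mark pericytes, at -1.27 with overlapping genotypes (edgeR adjusted p = 0.645). *Pdgfrb*, the PDGF receptor of pericytes that fibroblasts also carry, averaged 18600 ± 336 normalized counts with the knockout and 13059 ± 4675 without it (SD, n = 3 each), a log2 ratio of 0.51 (SE 0.29, edgeR adjusted p = 0.554). The summed mural markers were 24395 to 25071 in *Nhe6*-knockout cultures and 20695 to 38931 in wildtype cultures, where the highest was replicate 2, which also had the most reads of the smooth muscle actin gene *Acta2*, 15771 against 30 to 1272 in the other libraries. Their part in the *Notch3* values was not tested.

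*Notch1*, a receptor with broad roles that endothelial cells use in sprouting and quiescence, lies on chromosome 2 from 26457903 to 26516663. The *Nhe6*-knockout cultures had 955, 1153 and 1095 normalized counts, the wildtype cultures 425, 1164 and 452. Wildtype replicate 2 had the highest value of all 6 cultures, and the other pair of wildtype cultures had the lowest, so the genotypes overlapped. This gave a log2 fold change of 0.65 (SE 0.41, edgeR adjusted p = 0.600). Without wildtype replicate 2 it was 1.28 (SE 0.15) with an adjusted p of 0.0227, the lowest in a range that reached 0.988 over 14 alternatives. *Notch1*, like *Notch3*, *Notch4* and *Dll4*, overlaps an annotated gene on the opposite strand. Whether the authors counted by strand is not given in the sources used here, although the libraries were stranded. On the same strand, where strand does not separate the reads, annotated genes overlap *Notch1* (*Mir6996*), *Notch2* (*Gm42819* and *Gm42820*) and *Jag2* (*Mir6941*).

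*Notch2*, a receptor close to Notch1 in build, lies on chromosome 3 from 98013527 to 98150361. It had 4611, 4782 and 3811 normalized counts in *Nhe6*-knockout cultures and 5078, 5730 and 4278 in wildtype cultures. Replicate 3 was the lowest in each genotype, and the ranges overlapped. The log2 fold change of -0.19 (SE 0.16, edgeR adjusted p = 0.710) was the smallest in size of the 8 tested members, and it lay between -0.30 and -0.09 over 14 alternatives.

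*Notch4*, the receptor most restricted to endothelial cells, lies on chromosome 17 from 34564268 to 34588503. Normalized counts of 249, 294 and 24.6 with the knockout stood beside 149, 7.22 and 31.0 in wildtype. *Nhe6*-knockout replicates 1 and 2 and wildtype replicate 1 were high and the other 3 cultures low, across both genotypes. The log2 fold change of 1.60 had an SE of 1.21 (edgeR adjusted p = 0.669). On leaving out 1 culture it ranged from 1.07, without wildtype replicate 2, to 3.30, without wildtype replicate 1, with adjusted p-values of 0.336 or more. The endothelial surface gene *Emcn*, which encodes endomucin, had 18385 and 17400 normalized counts in *Nhe6*-knockout replicates 1 and 2 and 9896 in replicate 3. In wildtype cultures *Emcn* had 13407, 409 and 14723, so that wildtype replicate 2 was lowest for both genes while wildtype replicate 3 was high for *Emcn* only. *Emcn* does not stand for the endothelial list. Of the 8 tested endothelial markers, 3 including *Emcn* had a log2 fold change above 0 and 5 below 0. Those below included *Cdh5* at -4.15 and *Flt1* at -1.79. The summed macrophage markers were 2492, 2686 and 1126 in *Nhe6*-knockout and 2789, 91.8 and 1621 in wildtype cultures, lowest in the same library. The part of *Emcn*, the other endothelial markers or the macrophage markers in the *Notch4* values was not tested.

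Levels of different genes were compared per kilobase of exon, using GENCODE M21 on GRCm38. On this scale the order of the receptors was *Notch2*, *Notch3*, *Notch1*, *Notch4* in each of the 6 cultures. In wildtype cultures the levels were 466 ± 67.4 normalized counts per kilobase (SD, n = 3) for *Notch2*, 115 ± 48.0 for *Notch3*, 47.8 ± 29.4 for *Notch1* and 7.73 ± 9.39 for *Notch4*. In *Nhe6*-knockout cultures they were 408 ± 48.1, 273 ± 67.0, 75.0 ± 7.13 and 23.5 ± 17.9 (SD, n = 3). *Notch2* and *Notch3* were nearly level in *Nhe6*-knockout replicate 3, at 353 and 350 normalized counts per kilobase, and far apart in the other 5 cultures. Among neighbours in this order, the ranges of mean ± SD overlapped only for *Notch3* and *Notch1* in wildtype cultures.

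The make-up of the receptor transcripts was then given as each receptor's share of the summed per-kilobase level of the 4. *Notch3* made up 30.2% in *Nhe6*-knockout replicate 1, about 30% in replicate 2 and 44.6% in replicate 3, and 14.1%, 21.7% and 17.1% in the wildtype cultures. The genotypes did not overlap, and the means of 35.0 ± 8.39% and 17.7 ± 3.82% (SD, n = 3) differed by 17.3 percentage points. *Notch2* made up 56.8%, 55.3% and 45.1% against 77.9%, 67.7% and 76.1%, a difference of -21.5 percentage points, again without overlap. In both cases the exact two-sided permutation test gave p = 0.1, the smallest that 3 against 3 cultures allow, and 0.167 after adjustment over 10 shares, so neither could pass 0.05. As shares sum to the whole, the *Notch2* and *Notch3* differences are not separate results. The shares of *Notch1* and *Notch4* overlapped between genotypes (exact permutation p = 0.4 and 0.3).

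**Figure D2:**
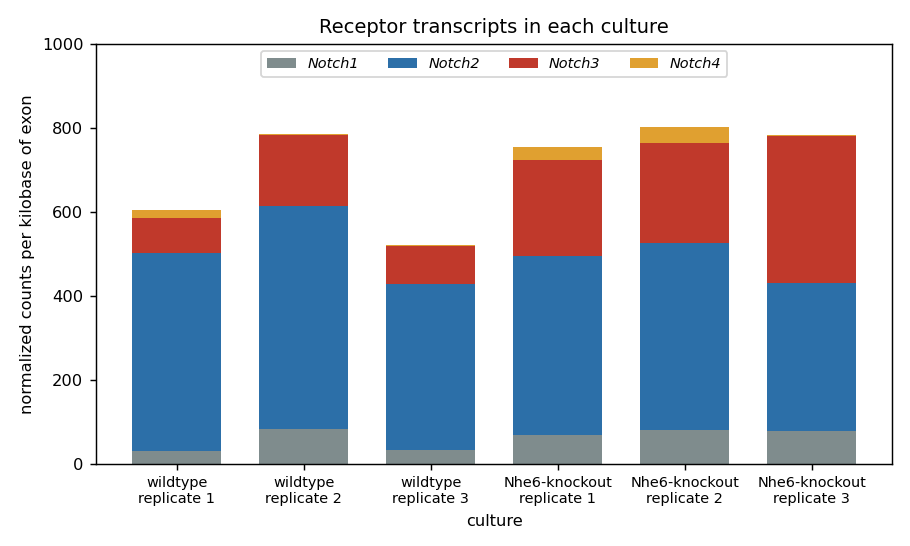
Stacked bars of the 4 receptors in each culture in normalized counts per kilobase of exon, on an axis that starts at 0. The receptor totals were 753 to 802 in *Nhe6*-knockout and 522 to 785 in wildtype cultures, and the red *Notch3* segment is taller in each *Nhe6*-knockout bar than in any wildtype bar.

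Among the ligands, *Jag1* was by far the most abundant per kilobase. *Jag1*, which encodes a membrane-bound ligand of the Jagged family, lies on chromosome 2 from 137081456 to 137116644. It had 1523, 1465 and 2377 normalized counts in *Nhe6*-knockout cultures and 1962, 4589 and 2706 in wildtype cultures. Wildtype replicate 2 was the highest, and *Nhe6*-knockout replicate 3 lay above wildtype replicate 1. On the log2 scale the difference was -0.79 (SE 0.35, edgeR adjusted p = 0.454) and -0.39 without wildtype replicate 2. Its share of the summed ligand level was 98.4% in *Nhe6*-knockout and 99.4% in wildtype cultures.

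*Jag2*, the second Jagged ligand, lies on chromosome 12 from 112907819 to 112929776 and had few reads. It had 14, 32 and 41 reads in *Nhe6*-knockout cultures and 10, 13 and 13 in wildtype cultures. The genotypes stayed apart, the nearest values by a single read. In log2 terms the difference was 1.17 (SE 0.48, edgeR adjusted p = 0.420), and no alternative brought it past the threshold.

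*Dll4*, the Delta-like ligand of arterial and tip endothelial cells, lies on chromosome 2 from 119325784 to 119335962 and was below the filter. It had 0, 3 and 11 reads in *Nhe6*-knockout cultures and 4, 5 and 2 in wildtype cultures. The 0 of *Nhe6*-knockout replicate 1 allows up to 3 reads, or 3.18 normalized counts, by counting error alone. A difference between genotypes was not detectable at this depth.

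*Hes1*, a repressor of the Hes family and a direct Notch target in many tissues, lies on chromosome 16 from 30064384 to 30067796. It had 203, 320 and 629 normalized counts in *Nhe6*-knockout cultures and 45.0, 655 and 139 in wildtype cultures. The 3 *Nhe6*-knockout cultures lay above wildtype replicates 1 and 3 and below wildtype replicate 2. The log2 fold change of 0.46 had an SE of 0.94 (edgeR adjusted p = 0.892). It was 2.06 without wildtype replicate 2 (adjusted p = 0.168) and -0.11 and -0.05 without *Nhe6*-knockout replicate 3 or wildtype replicate 1, so its sign turned on leaving out 1 culture.

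*Hey1*, a repressor of the Hey family that endothelial cells use downstream of Notch, lies on chromosome 3 from 8663359 to 8667256. It had 7, 7 and 18 reads in *Nhe6*-knockout cultures and 24, 95 and 10 in wildtype cultures. The genotypes overlapped, and wildtype replicate 2 held most of the wildtype reads. The genotypes differed by -2.08 on the log2 scale (SE 0.91, edgeR adjusted p = 0.444) and -0.73 without that culture. *Hey2*, its relative known from arteries and heart, lies on chromosome 10 from 30832359 to 30842801 and had 6, 3 and 1 reads against 5, 9 and 1, below the filter. Per kilobase, *Hes1* made up 97.7 ± 1.08% of the summed target level in *Nhe6*-knockout and 86.3 ± 11.9% in wildtype cultures (SD, n = 3; exact two-sided permutation p = 0.1, adjusted 0.167). The difference of 11.4 percentage points was 4.67 without wildtype replicate 1, where the share of *Hes1* was 72.8%.

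**Figure D3:**
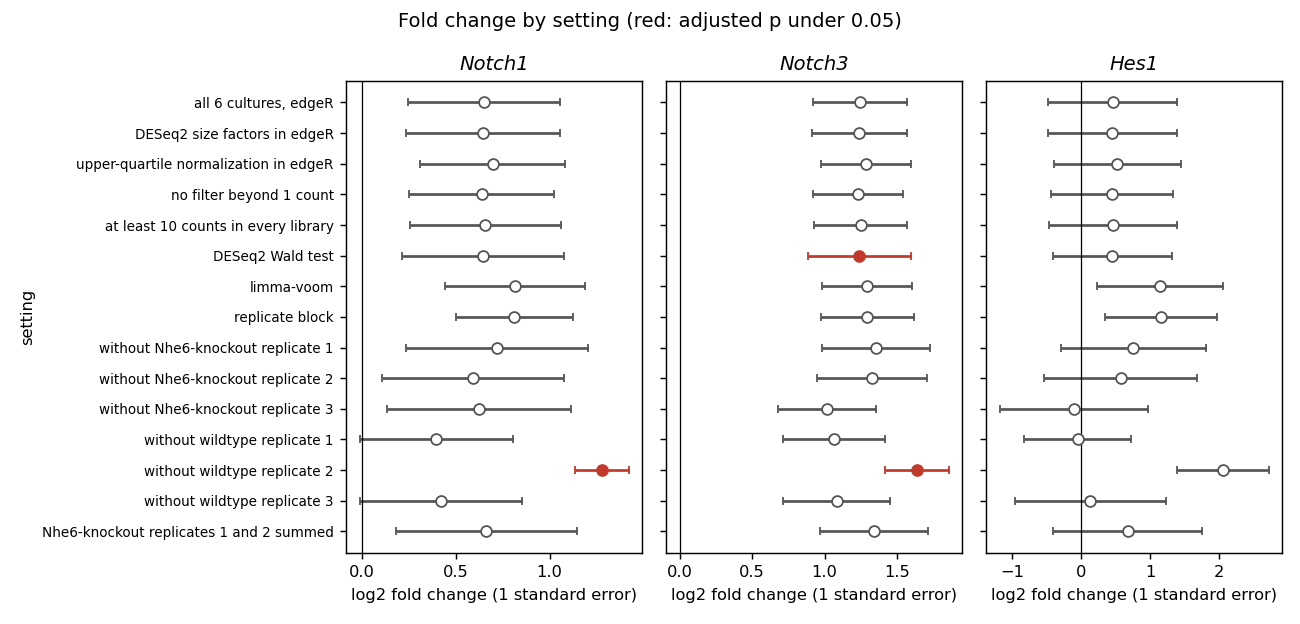
Log2 fold changes of *Notch1*, *Notch3* and *Hes1* with 1 standard error for the 6 cultures with edgeR and for 14 alternatives, where red points have an adjusted p under 0.05. *Notch1* is red only without wildtype replicate 2, *Notch3* is red with DESeq2 and without that culture, and *Hes1* lies on either side of 0.

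The members were also set beside each other across the 6 cultures, on log2(normalized count + 1). These are descriptions over 6 libraries of 2 genotypes, which the points share, together with the distance of wildtype replicate 2. *Notch1* and *Notch3* had r = 0.895 (Spearman 0.600), and r = 0.969 without wildtype replicate 2. *Notch1* and *Hes1* had r = 0.881 (Spearman 0.943), and 0.862 without it. The receptor pair and *Hes1* were thus low together in wildtype replicates 1 and 3. Not every receptor ran with the targets. *Hes1* had r = -0.103 with *Notch2*, 0.781 with *Notch3* and -0.516 with *Notch4*. *Hey1*, the other tested target, had r = 0.105, 0.600, -0.167 and -0.773 with *Notch1* to *Notch4* in order. Without wildtype replicate 2 these were -0.532, -0.0758, -0.351 and -0.461. Only some of the pairs of members are given here. *Notch4* and *Jag1* ran opposite, with r = -0.960 (Spearman -0.943). *Jag1* and *Hey1* had r = 0.874, which was 0.553 without wildtype replicate 2.

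**Figure D4:**
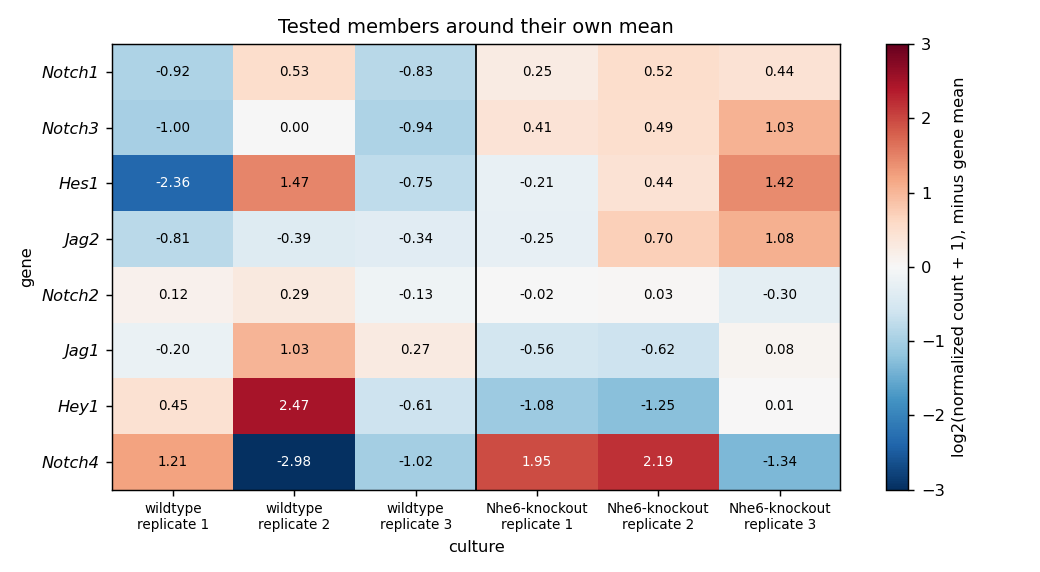
Heat map of the 8 tested members in the 6 cultures, as log2(normalized count + 1) minus the mean of the gene, from blue (low) to red (high). *Notch1*, *Notch3* and *Hes1* are blue in wildtype replicates 1 and 3, and *Notch4* is lowest and *Hey1* highest in wildtype replicate 2.

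The gene most like each member was picked as the highest r among the tested genes averaging 100 normalized counts or more. This choice alone makes r high with 6 libraries. It was *Psrc1* for *Notch1* (r = 0.994), *Ikzf5* for *Notch2* (0.992), *Slc2a9* for *Notch3* (0.991) and *Tns2* for *Notch4* (0.989). For the ligands it was *Sfxn3* for *Jag1* (0.998) and *Mest* for *Jag2* (0.977). For the targets it was *Entpd7* for *Hes1* (0.993) and *Praf2* for *Hey1* (0.995).

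The other genes of the pathway were read in the same fit from a list of 65, of which 58 were tested. The genes tested had a median log2 fold change of 0.06, 23 below and 35 above 0. An adjusted p under 0.05 was reached by 0 of the 58, 7 had an unadjusted p under 0.05, beside 11.8% of all genes, and DESeq2 called 3, beside 4.69%. Both counts were near the shares over all genes. The genotypes did not overlap for 12, with 5 lower and 7 higher in *Nhe6*-knockout cultures, beside 9.57% and 10.3% of all genes.

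Of 7 modulators outside the canonical ligands, 2 had an unadjusted p under 0.05, beside 11.8% of all genes. These were *Dlk2* and *Nov*, with the largest differences of the list. In the rest the genotypes overlapped, and the median log2 fold change over the 7 was 0.09. *Dlk2* had only 4 to 33 reads. *Dlk2*, a Delta-like protein without the receptor-activating domain, had 32.9, 30.7 and 29.3 normalized counts in *Nhe6*-knockout and 7.82, 5.16 and 4.28 in wildtype cultures. Its log2 fold change was 2.40 (SE 0.41), with an adjusted p of 0.0985 from edgeR, the lowest of the list, and of 0.00537 from DESeq2. *Nov*, a matricellular protein that binds Notch, had 1228, 1113 and 1062 against 3156, 21901 and 4078. Each *Nhe6*-knockout culture was below each wildtype culture, and wildtype replicate 2 stood far above the rest. The log2 fold change was -3.10 (SE 0.79, edgeR adjusted p = 0.195, 2.61e-04 from DESeq2). Without wildtype replicate 2 it was -1.68, with an adjusted p of 0.0145.

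Of 5 tested genes of receptor maturation, 2 had an unadjusted p under 0.05, beside 11.8% of all genes. *Furin*, the protease that cuts the receptor on its way to the surface, had 3185 mean normalized counts in *Nhe6*-knockout and 2221 in wildtype cultures (log2 fold change 0.52, SE 0.15, edgeR adjusted p = 0.262). *Lfng*, the Lunatic fringe glycosyltransferase that shifts the ligand preference of Notch, had 184, 205 and 311 against 136, 62.9 and 124 (log2 fold change 1.12, SE 0.37, edgeR adjusted p = 0.322). Of 4 genes of ligand endocytosis, 1 had an unadjusted p under 0.05. This was *Neurl1b*, a Neuralized ubiquitin ligase, with 97.7, 91.0 and 58.7 against 20.5, 28.9 and 22.5. Its log2 fold change was 1.78 (SE 0.36), with an adjusted p of 0.118 from edgeR and 0.00182 from DESeq2.

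The 9 genes of receptor cleavage, among them *Adam10* and *Ncstn*, had log2 fold changes between -0.35 and 0.42, none with an unadjusted p under 0.05. Of 9 genes of the nuclear complex, 1 had an unadjusted p under 0.05, beside 11.8% of all genes. This was *Maml1*, a Mastermind coactivator, with 1882 against 1472 mean normalized counts (log2 fold change 0.35, SE 0.13, edgeR adjusted p = 0.378). *Rbpj*, the DNA-binding partner, had a log2 fold change of 0.05 (SE 0.13). Of 12 corepressor genes, 1 had an unadjusted p under 0.05, beside the same 11.8%. It was *Spen*, with 2523 against 1991 (log2 fold change 0.34, SE 0.12, edgeR adjusted p = 0.329). Of 6 other targets, *Heyl* and *Hes6* were tested and *Hes2*, *Hes3*, *Hes5* and *Hes7* had at most 2 reads in a library. *Heyl* had a log2 fold change of -0.57 and *Hes6* of -0.46 (edgeR adjusted p = 0.810 and 0.687), with overlapping genotypes. Of 10 genes of receptor turnover and inhibition, 9 were tested, between -0.60 and 0.36, none with an unadjusted p under 0.05. *Nrarp*, below the filter, had 1, 1 and 3 reads in *Nhe6*-knockout and 3, 7 and 4 in wildtype cultures.

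**Figure D5:**
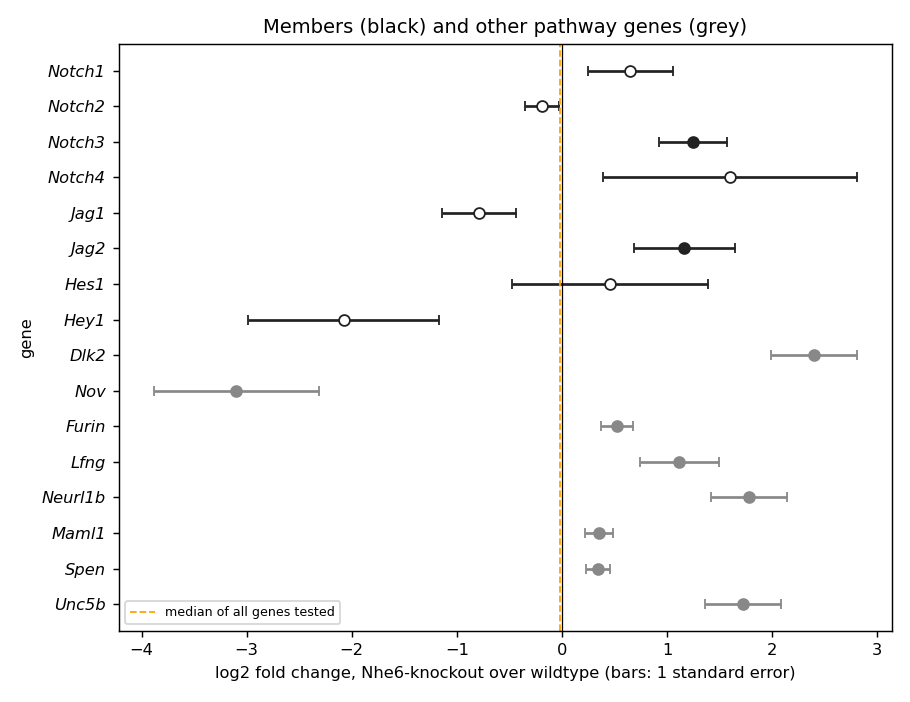
Log2 fold changes of the 8 tested members (black) and of the 7 pathway genes and *Unc5b* (grey) that had an unadjusted p under 0.05 and no overlap between genotypes, with 1 standard error, where filled points mark genes whose genotypes did not overlap. *Notch3* and *Jag2* are filled and lie above 0, and of the genes plotted *Nov* is the filled one below 0.

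Genes of arterial and venous identity, which Notch is known to steer in endothelial cells, gave little to compare. Of 8 listed genes 5 were tested, *Sox17* had 0 reads in all libraries, and *Gja5* and *Cxcr4* were below the filter. An adjusted p under 0.05 was reached by 0 of the 5, 1 had an unadjusted p under 0.05 (11.8% of all genes) and DESeq2 called 1 (4.69% of all genes), in both cases *Unc5b*, a netrin receptor of arterial endothelium. *Unc5b* had 2193, 2163 and 4725 normalized counts in *Nhe6*-knockout and 801, 1153 and 797 in wildtype cultures, without overlap. Its log2 fold change was 1.72 (SE 0.36), with an adjusted p of 0.125 from edgeR and 4.02e-04 from DESeq2. The others lay between -0.26 for *Ephb4* and 0.02 for *Efnb2*.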

How the data were processed

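RNA sequencing was read from 3 *Nhe6*-knockout and 3 wildtype cultures. The authors deposited a table of raw read counts per gene, with gene symbols only. The libraries were poly(A)-selected and stranded. The submitters' processing notes name bcl2fastq 2.20.0.422, STAR 2.7.7a, HTSeq 0.13.5 and DESeq2 1.26.0, and the annotation is not given in the sources used here. The 5 summary lines, 22.2% of all reads, were left out.

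Counts were filtered with filterByExpr (minimum count 10), scaled by TMM and tested in edgeR 4.0.16 (R 4.3.3; quasi-likelihood F test, two-sided), and p-values were adjusted by Benjamini-Hochberg across the 13479 genes tested, with a threshold of 0.05. Genotype was the only term. DESeq2 1.42.0 and limma-voom (limma 3.58.1) were alternatives, as were other scalings, other filters, a replicate block, leaving out each culture and summing *Nhe6*-knockout replicates 1 and 2. The test was tried on simulated counts first, with a rule for passing only at a low dispersion and not at that of these cultures. The outcome is not reported here and is not used as support. Standard errors are the log2 fold change over the square root of F. Positions and exon lengths are from GENCODE M21 on GRCm38. Named were all members, pathway and vessel genes with an unadjusted p under 0.05 and no overlap between genotypes, the 3 pathway genes with the smallest p, and defining markers. Other pathway, arterial or venous genes and markers were named as examples after their values were seen. The members and lists were chosen with earlier results of these data known. The floor for 0 reads is 3 counts and covers counting error only. The check of the targeted gene is not reported here.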

Additional observations from a re-analysis of the deposited data

How the results depend on the processing

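Over all genes, 9 passed the threshold, and 21 without the low-count filter, 21 with at least 10 counts in every library, 627 with DESeq2, 2 with the replicate block, 1 with *Nhe6*-knockout replicates 1 and 2 summed, and 0 to 395 on leaving out 1 culture, where 395 belongs to wildtype replicate 2 and the others gave at most 4. Members past the threshold numbered 0, 1 with DESeq2 (*Notch3*) and 0 to 2 on leaving out a culture (*Notch1* and *Notch3* without wildtype replicate 2). For the other pathway genes these counts were 0, 3 and 0 to 1, and for the arterial and venous genes DESeq2 called 1. The log2 fold change of *Hes1* was -0.11 to 2.06 on leaving out a culture, the share difference of *Dll4* -0.0548 to 0.270 and that of *Hey2* -1.44 to 0.149 percentage points, each with a change of sign. The causes were not tested.

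Cultures with the same replicate number had correlations of 0.276, -0.146 and 0.145 of their deviations from the genotype means, so the numbers were not taken to pair them. With the block 0 members passed, as in the main fit, which had no call to lose. Members with an unadjusted p under 0.05 numbered 1 with the block and 2 without it. The edgeR adjusted p of *Notch3* was 0.322 with the block and 0.209 without it. *Notch4*, *Hey1* and *Dlk2* could not be tested with at least 10 counts in every library. Depth limits *Dll4*, *Hey2*, *Jag2* and *Hey1*, which had at most 11, 9, 41 and 95 reads.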
